A study of Mus musculus with 5 samples.

Results

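The nuclear genes for subunits of respiratory complexes I, III, IV and V were followed through 5 RNA libraries of C2C12 cells, an immortalised mouse myoblast line. Members were chosen by gene name alone, taking Nduf genes of the a, b, c, s and v series, Uqcr genes and Cyc1, Cox4 to Cox8 genes and Atp5 genes, and leaving out pseudogene names. This gave 81 of the 23361 genes in the table. By name 37 were counted to complex I, 9 to complex III, 18 to complex IV and 17 to complex V. The study asked what small molecules that act on PKM2, the M2 form of pyruvate kinase, and a hairpin against it do to muscle progenitor cells. The libraries came from proliferating cells in high-glucose medium with serum. Cells of the shPKM2 and shControl libraries had carried a short hairpin RNA against PKM2 or a control hairpin for 72 h, and cells of the other libraries had been kept for 8 h with shikonin, with TEPP-46 or with vehicle. Shikonin, a naphthoquinone from plants, is used to inhibit PKM2, whereas TEPP-46 is known to activate the enzyme, although the study's title speaks of inhibition. The labels give neither the doses nor the hairpin sequences. Each condition had 1 library of polyadenylated RNA, so every difference below compares 1 library with another, has no replicate check and carries no test.

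The respiratory chain of the inner mitochondrial membrane passes electrons from NADH and succinate to oxygen and pumps protons, and the ATP synthase uses the proton gradient to make ATP. Complex I oxidises NADH and reduces ubiquinone, complex III passes the electrons on to cytochrome c, complex IV reduces oxygen with them, and complex V is the ATP synthase. A few subunits are encoded in mitochondrial DNA and the rest, including all members here, in the nucleus, so that each complex is built from the products of both genomes. The nuclear genes are known targets of the factors NRF-1, GABP, YY1 and ERR alpha and of the PGC-1 coactivators, and some subunits have a second gene used in heart and skeletal muscle, in lung or in testis.

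Depth, read from the step between low values, was about 22.2 to 30.7 times 1000000 reads per library. All 8 myoblast markers, among them Myod1, Des and Vim, averaged 1 FPKM or more (FPKM being fragments scaled to transcript length and library size), and their summed level was 3123 FPKM with shikonin and 3906 to 5166 FPKM in the other libraries. Most of that sum was Vim, at 4453 of 5088 FPKM with vehicle. Myod1, Myf5, Des, Vim, Chrna1 and Pax7 were each lowest with shikonin. Cdh15 and Itga7 were lower in shPKM2 (38.9 and 106 FPKM) than with shikonin (45.3 and 112 FPKM). The 6 differentiation markers in the table summed to 23.1 FPKM with shikonin and to 43.97 to 61.05 FPKM in the others. Of 8 markers of leukocytes, endothelium, epithelium, fat and liver, Cd68 alone averaged 1 FPKM or more, and the list summed to 2.69 to 13.05 FPKM. Pkm, the target of the hairpin, stood at 1041 FPKM in shPKM2, 2061 FPKM in shControl, 1321 FPKM with vehicle, 1198 FPKM with TEPP-46 and 1501 FPKM with shikonin. In these bulk samples fewer cells of a kind and less RNA per cell cannot be told apart.

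Of the 81 members, 75 averaged 1 FPKM or more over the 5 libraries and entered the comparisons. The 6 below it were Cox4i2, Cox6b2, Cox7b2, Cox8b, Cox8c and Ndufa4l2, and one that entered, Cox6a2, did so through its level in the TEPP-46 library. The members together made up 2.33% of all FPKM with shikonin, 2.54% with TEPP-46, 2.71% with vehicle, 3.01% in shPKM2 and 3.14% in shControl. Atp5b, the gene of the catalytic beta subunit of ATP synthase, had the highest level of all members in every library, at 1264 FPKM in shPKM2, 1215 FPKM in shControl, 1098 FPKM with vehicle, 1075 FPKM with TEPP-46 and 914 FPKM with shikonin. Ndufa4 was the highest gene of the complex I names, at 514 to 653 FPKM, a protein that was first placed in complex I and later found in complex IV. Cox4i1, a subunit that contacts the mitochondrially encoded core of complex IV, led that complex at 488 to 638 FPKM. The lowest member of complex I that entered was Ndufa11, a membrane arm subunit, at 12.02 to 16.4 FPKM. Median levels differed between complexes, the vehicle library having a median of 106 FPKM over complex I, 221 FPKM over complex III, 330 FPKM over complex IV and 270.2 FPKM over complex V. The spread between subunits of 1 complex was therefore far wider than that between libraries for most genes, as the plot of levels by gene shows.

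**Figure D1:**
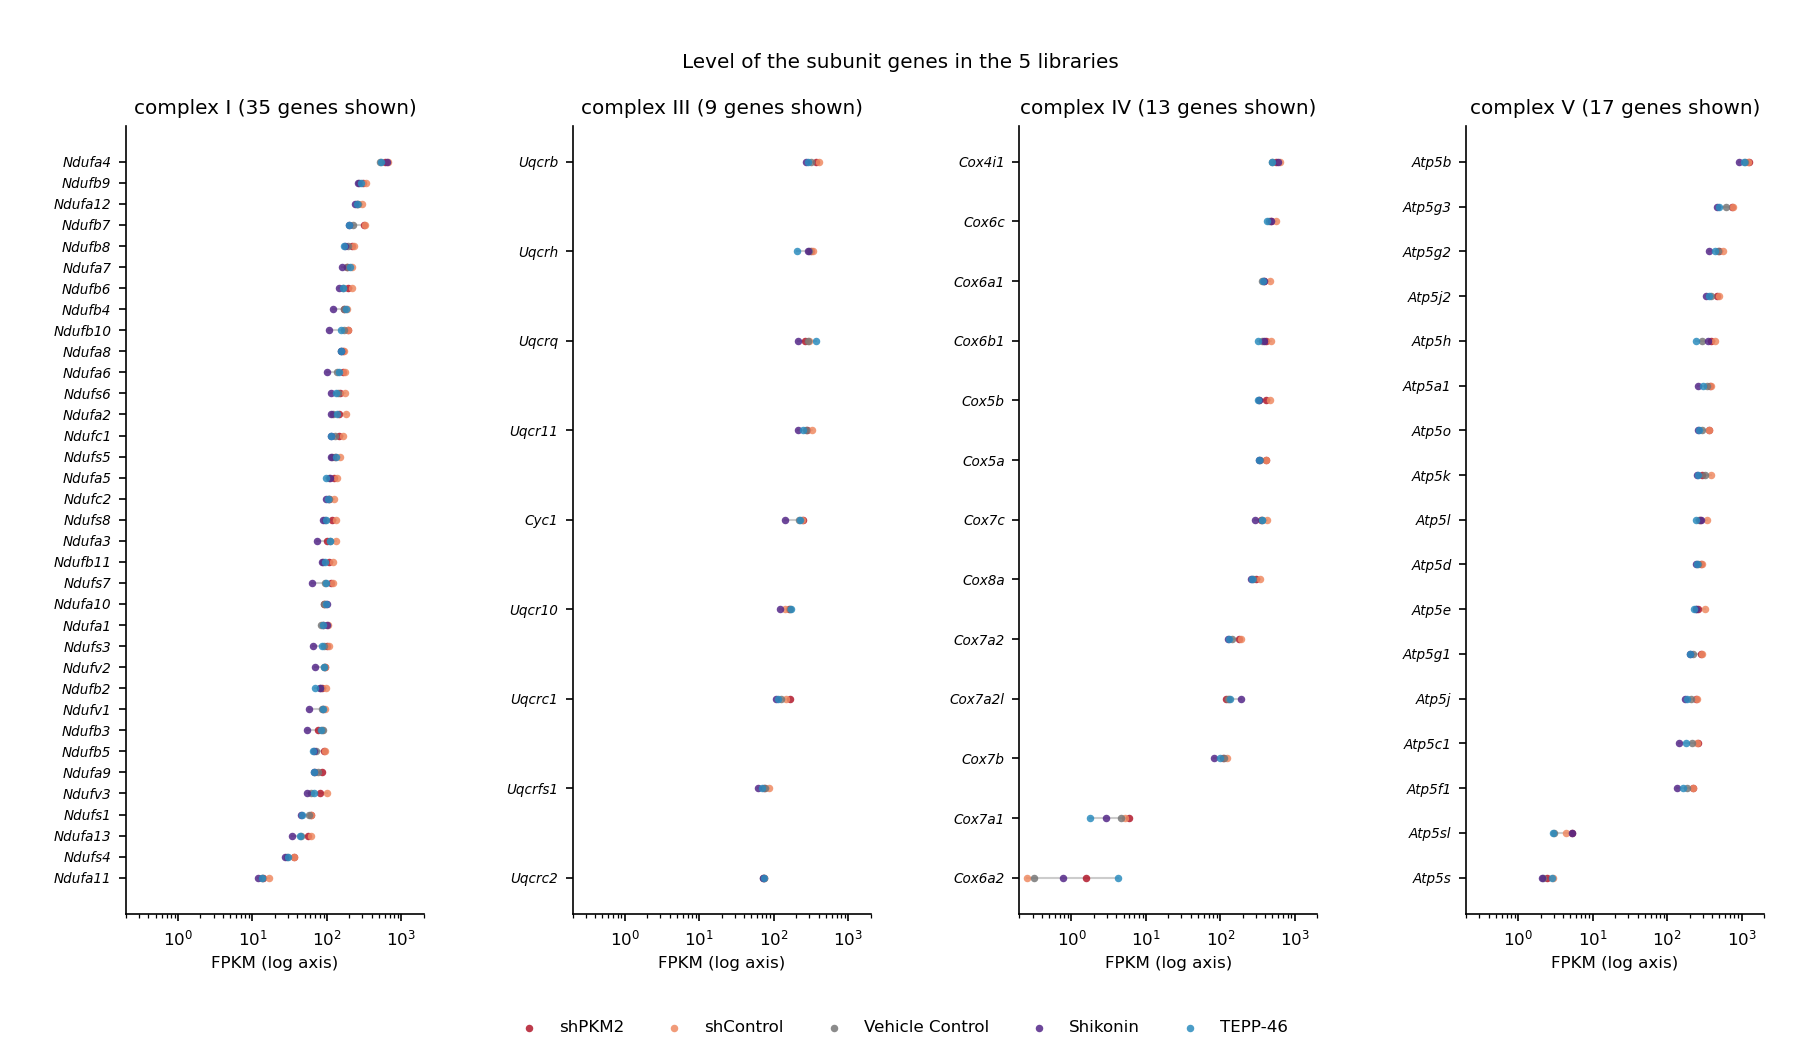
Level in FPKM (log axis) of 74 of the 75 members averaging 1 FPKM or more, by complex, each point 1 library and each grey line the range over the 5 libraries. Most genes lie within a narrow range across libraries, while Cox6a2 spans 0.254 to 4.25 FPKM.

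The libraries kept an order across the members. Of the 75 genes, 57 had their highest level in shControl and 12 in shPKM2, whereas 51 had their lowest level with shikonin and 17 with TEPP-46. Such counts were not made over all genes, so how far they are particular to the members is not known. In complex III, 8 of 9 genes were lowest with shikonin, and in complex V 13 of 17. Complex IV differed from that, with 4 of 13 lowest with shikonin and 6 with TEPP-46. The summed level of complex I was 5168 FPKM in shPKM2, 5674 FPKM in shControl, 4616 FPKM with vehicle, 4568 FPKM with TEPP-46 and 4177 FPKM with shikonin. For complex III the sums were 1958 FPKM in shPKM2, 2070 FPKM in shControl, 1839 FPKM with vehicle, 1759 FPKM with TEPP-46 and 1491 FPKM with shikonin. For complex V they were 6242 FPKM in shPKM2, 6629 FPKM in shControl, 5443 FPKM with vehicle, 4920 FPKM with TEPP-46 and 4650 FPKM with shikonin. These 3 complexes were thus lowest with shikonin. The sum of complex IV was 3714 FPKM in shPKM2, 4223 FPKM in shControl, 3367 FPKM with vehicle, 3248 FPKM with TEPP-46 and 3440 FPKM with shikonin, so that TEPP-46 was lowest here. The order of shikonin and vehicle in complex IV turned with the scaling, as its share of all FPKM was 0.582% with shikonin and 0.598% with vehicle.

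**Figure D2:**
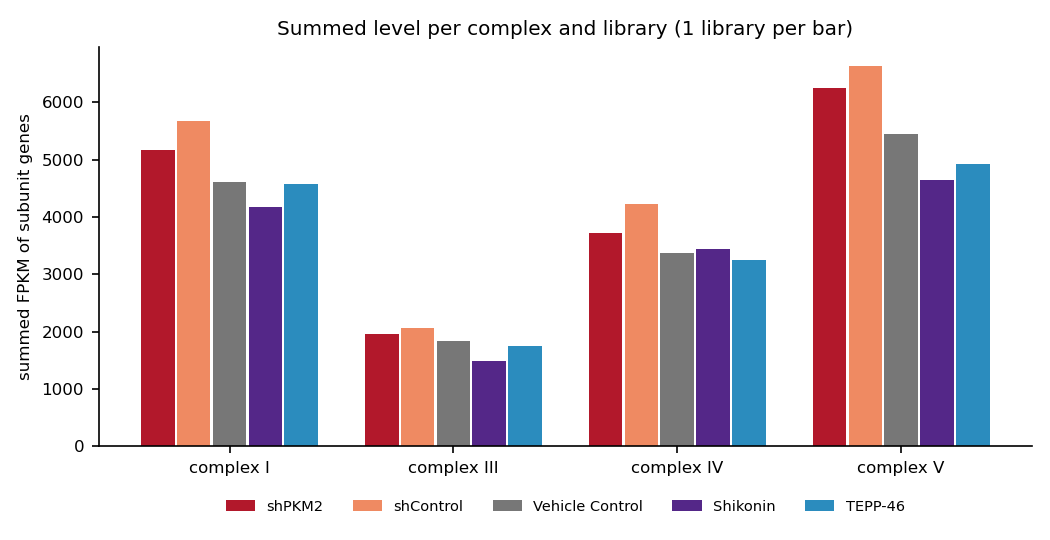
Summed FPKM of the subunit genes of each complex in each library, 1 library per bar and no error bar since no condition was repeated. Complexes I, III and V are lowest with shikonin, at 4177, 1491 and 4650 FPKM, and complex IV is lowest with TEPP-46, at 3248 FPKM.

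Shikonin was compared with vehicle to see what a compound used against PKM2 does within 8 h. Subunit genes were mostly lower with shikonin, by modest amounts and unevenly between complexes. Differences are given as the log2(FPKM + 1) of the first library minus that of the second, a scale that understates differences of low genes. The median over the 75 members was -0.18, against -0.03 over all 11128 genes that averaged 1 FPKM or more, and 60 members lay below 0, against 52.2% of all genes. Lower by 20% or more, the equal of a 25% difference upward, were 23 of 75 members, where 27.5% of all genes were, a share near the background. Higher by 25% or more were 3 of 75, where 23.8% of all genes were. No member was 2-fold higher or lower, where 4.01% of all genes were higher and 3.5% lower. The members also lay closer together than genes at large, with a standard deviation of 0.27 against 0.61. The genes at large, which enter from a mean of 1 FPKM, were not matched to the members for level. The members had a median of 162 FPKM with vehicle, and how far level took part in the spread and in the 2-fold shares was not tested.

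By complex the medians with shikonin were -0.16 for complex I, -0.31 for complex III, 0.01 for complex IV and -0.22 for complex V. All 9 genes of complex III, 31 of 36 of complex I and 14 of 17 of complex V were below 0, but 6 of 13 of complex IV. With the values rescaled to TPM (transcripts per 1000000) the complex IV median was -0.06, so its side of 0 depends on the scaling. The other 3 complexes stayed below 0. The median of all genes moved too, to -0.09, so that complex IV lay above it on both scales. All coding genes with transcripts under 1000 nt, a class that holds 58 of the 75 members, had a median of -0.10 with shikonin. How far transcript length took part in these values was not tested.

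**Figure D3:**
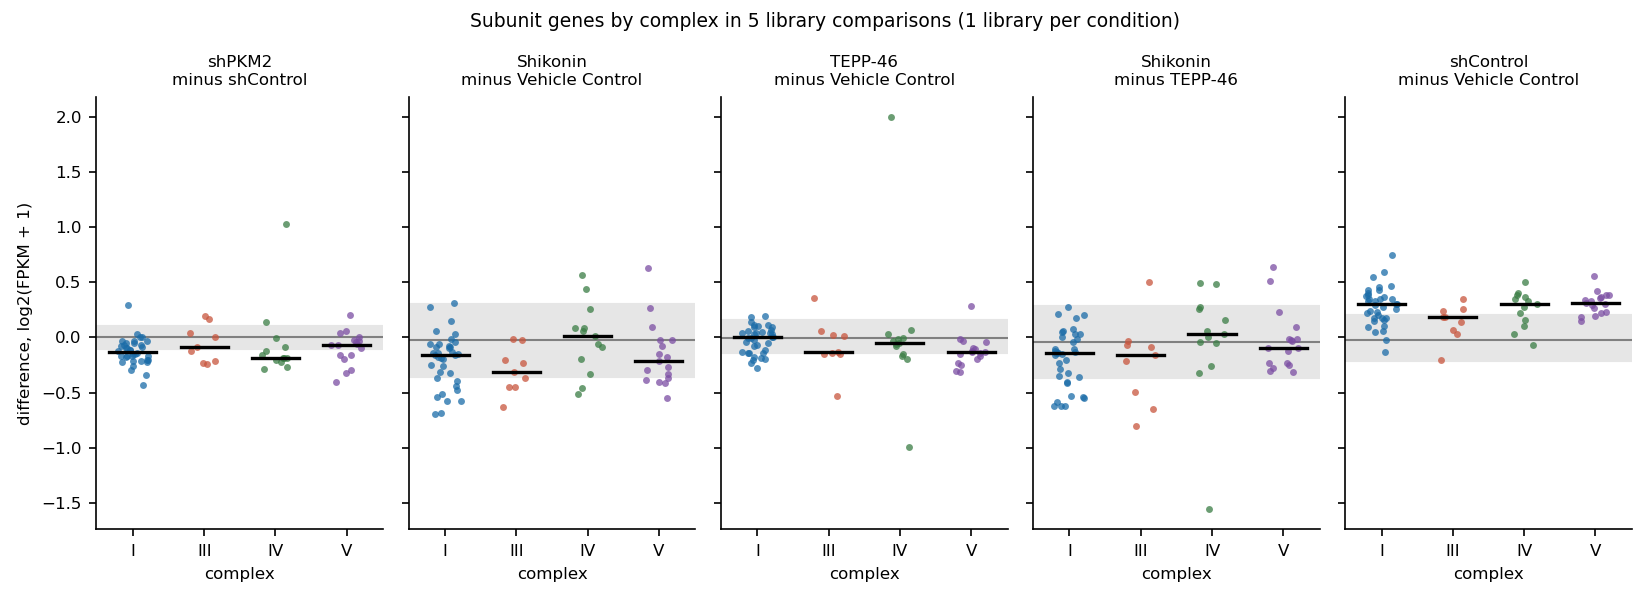
Difference in log2(FPKM + 1) of each member (points) by complex in the 5 comparisons, with the median of each complex (black line) and the quartiles and median of all 11128 genes (grey band and line). With shikonin the medians of complexes I, III and V are -0.16, -0.31 and -0.22 and that of complex IV is 0.01, and in shControl against vehicle all 4 medians are above 0.

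Within complex I the catalytic core was lower with shikonin. The 7 nuclear-encoded core subunits, which carry electrons from NADH towards the quinone, were all below 0 with a median of -0.36, and the 28 accessory subunits that entered had a median of -0.15, with 24 below 0. Ndufv1, which binds NADH and the flavin, stood at 56.8 FPKM with shikonin, 85.4 FPKM with vehicle, 87.7 FPKM with TEPP-46, 89.04 FPKM in shPKM2 and 94.9 FPKM in shControl. The shikonin library alone was low, and the difference from vehicle was -0.58 with a standard error (SE) of 0.041 from counting alone. Ndufs7, which carries the last iron-sulfur cluster before the quinone, stood at 62.04 FPKM with shikonin, 93.2 FPKM with vehicle, 95.96 FPKM with TEPP-46, 114 FPKM in shPKM2 and 121 FPKM in shControl. Its difference was -0.58 (counting SE 0.051), and the shikonin value again lay below all others. Ndufs3, a subunit of the arm that reaches into the matrix, was also lowest with shikonin, at 64.96 FPKM against 91.06 FPKM with vehicle (-0.48, counting SE 0.046). Ndufv2 stood at -0.36 and Ndufs1 at -0.32, and Ndufs8 had the smallest difference of the core at -0.08. Among the structural modules, all 10 genes of the NADH-oxidising module were below 0 (median -0.28), with 5 of 6 genes of the quinone-reducing module (median -0.21) and 16 of 19 of the membrane module (median -0.14).

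The lowest complex I genes of all with shikonin were accessory subunits of the membrane arm. Ndufb3 (chromosome 1, 58586397 to 58595964, GRCm38) stood at 54.2 FPKM with shikonin, 88.5 FPKM with vehicle, 83.9 FPKM with TEPP-46, 77.0 FPKM in shPKM2 and 86.9 FPKM in shControl. The difference was -0.70 (counting SE 0.057), and the other 4 libraries lay close together. Ndufb10 (chromosome 17, 24722060 to 24724423) stood at 106 FPKM with shikonin, 171 FPKM with vehicle, 155 FPKM with TEPP-46 and 193 FPKM in both hairpin libraries (-0.68, counting SE 0.045). Ndufa3 was at -0.54 and Ndufb4 at -0.52 in the same arm, and Ndufa6, a subunit on the matrix side, at -0.44. Not all of the membrane arm was lower: Ndufa1, a subunit at the base of that arm, was at 0.27 (101 FPKM against 83.2 FPKM) and Ndufa10 at 0.15. Ndufa4 was at 0.31, 637 FPKM with shikonin against 514 FPKM with vehicle.

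In complex III every gene was below 0, the electron carriers and the other subunits alike. Cyc1, the gene of the haem protein cytochrome c1 (chromosome 15, 76343513 to 76346260), stood at 142 FPKM with shikonin, 221 FPKM with vehicle, 223 FPKM with TEPP-46, 249.9 FPKM in shPKM2 and 244 FPKM in shControl. That was a difference of -0.63 (counting SE 0.037), the largest of the complex, with the shikonin library apart from 4 close values. Uqcrq was at -0.45 and Uqcr10 at -0.45, both small subunits, and Uqcr11 at -0.36. Uqcrfs1, the Rieske iron-sulfur protein gene, was at -0.31, Uqcrb at -0.23 and the core protein gene Uqcrc1 at -0.21. Uqcrc2, the partner of Uqcrc1, was the flattest of all members, at 71.8 to 73.8 FPKM over all 5 libraries and a difference of -0.01 with shikonin, and the hinge protein gene Uqcrh was at -0.03.

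Complex V held genes on both sides of 0, in the stalk as well as in the membrane part. In the catalytic head, the gamma subunit gene Atp5c1 stood at 146 FPKM with shikonin, 213 FPKM with vehicle, 181 FPKM with TEPP-46, 258 FPKM in shPKM2 and 251 FPKM in shControl, a difference of -0.55 (counting SE 0.031). The alpha subunit gene Atp5a1 was at -0.37 and the beta subunit gene Atp5b at -0.26, whereas the delta and epsilon genes Atp5d (-0.08) and Atp5e (-0.03) were near 0. In the stalk that holds the head, the b subunit gene Atp5f1 was at -0.42 and the coupling factor 6 gene Atp5j at -0.30, but the d subunit gene Atp5h was at 0.26. Atp5h stood at 354 FPKM with shikonin, 295 FPKM with vehicle, 247 FPKM with TEPP-46, 388 FPKM in shPKM2 and 435 FPKM in shControl. The membrane genes Atp5g3 (-0.41), Atp5g2 (-0.39) and Atp5k (-0.33) were lower and Atp5l was at 0.09. Atp5sl, now called Dmac2 and counted here only by its older name, is no ATP synthase subunit, and stood at 5.20 FPKM with shikonin against 3.02 FPKM with vehicle (0.63), a low level where the added 1 weighs. Atp5s, now called Dmac2l, was also counted by its older name, at 2.09 FPKM with shikonin and 2.14 FPKM with vehicle. With Atp5sl and Atp5s left out the complex V median with shikonin was -0.26 over 15 genes.

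Complex IV held genes on both sides of vehicle with shikonin. Cox7a2l (chromosome 17, 83501917 to 83514333), whose protein helps to join complexes III and IV into supercomplexes, stood at 188 FPKM with shikonin, 127 FPKM with vehicle, 133 FPKM with TEPP-46, 119.9 FPKM in shPKM2 and 130.3 FPKM in shControl. It was higher by 0.56 (counting SE 0.031), and the other 4 libraries lay within a narrow band. Cox4i1 was at 0.26, 592 FPKM against 494 FPKM with vehicle. Cox6c (0.09), Cox6b1 (0.09), Cox6a1 (0.06) and Cox5b (0.01) differed little. On the low side were Cox7b at -0.46 (82.2 FPKM against 113 FPKM, counting SE 0.042) and Cox7c at -0.33, both small membrane subunits, and the muscle isoform gene Cox7a1 at -0.51 from 4.57 FPKM with vehicle.

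**Figure D4:**
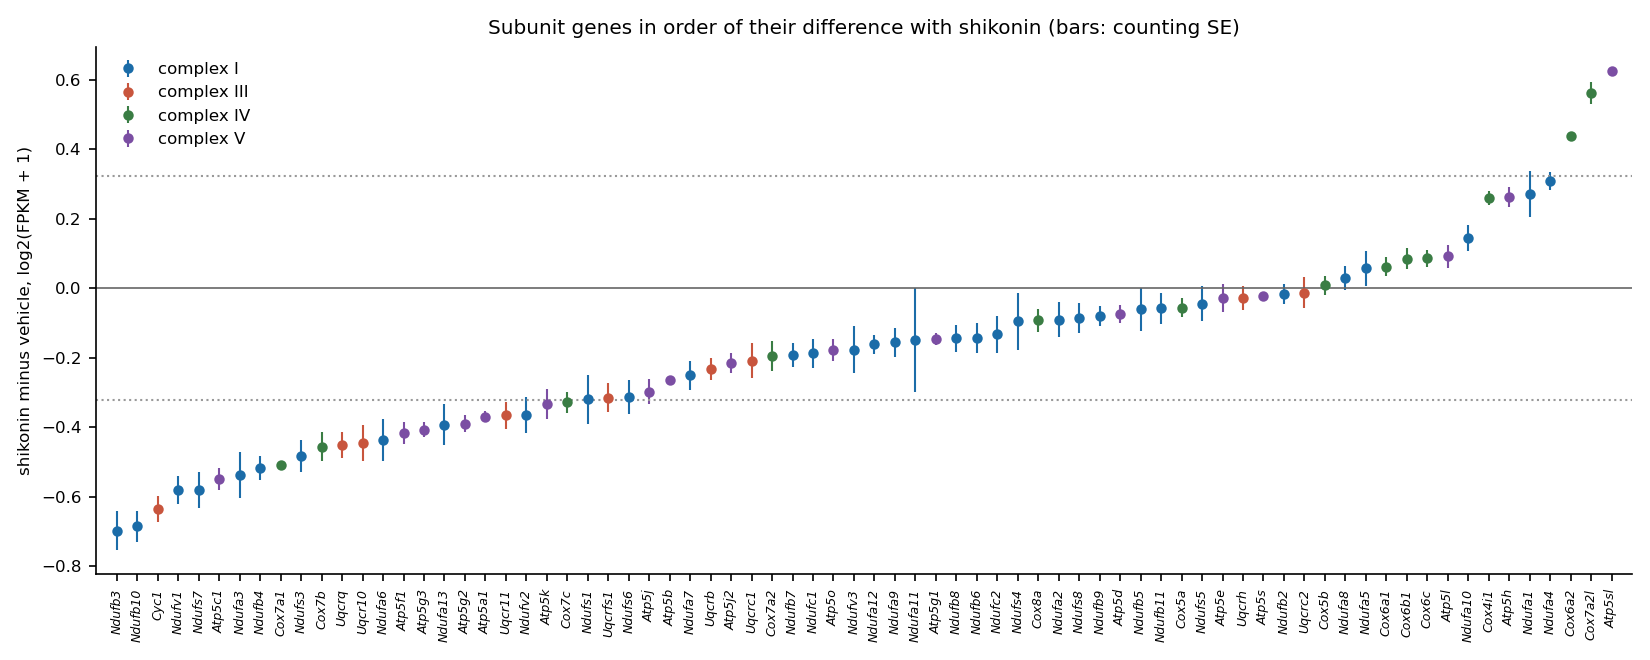
Difference between shikonin and vehicle, log2(FPKM + 1), for 74 of the 75 members in ascending order, coloured by complex, with bars of 1 counting SE for genes averaging 5 FPKM or more and dotted lines at 25% higher and 20% lower. Ndufb3 at -0.70 is the lowest and Cox7a2l at 0.56 the highest of the genes with such bars.

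Promoter sequences were read to see what the members share beyond their names. RefSeq windows of 250 bases before to 50 bases after the gene start (GRCm38.p6) were present for 66 of the 81 members. They were searched on both strands for the letters of 3 factors that act on respiratory genes: GCGC and TGCGC parted by 1 free base for NRF-1, CCGGAAG for ETS factors such as GABP, and AAGATGGCG for YY1, each counted on its own whether or not it overlapped another. The NRF-1 letters were found in 15 of 66 members (22.7%) and in 5.19% of all 27025 genes with a window, the ETS letters in 14 members (21.2%) and 9.93% of all genes, and the YY1 letters in 8 members (12.1%) and 1.64% of all genes. In all, 32 of 66 members held at least 1 of the 3, and the matching share of all genes was not counted. The 27025 genes were not limited to those that entered the comparisons, whereas most members with a window did enter. Shares among the genes that entered were not taken. How far the letters are particular to the members, rather than to genes expressed in these cells, was therefore not tested. Complex V had the NRF-1 letters in 6 of 16 windows, complex I in 7 of 32, complex III in 1 of 5 and complex IV in 1 of 13.

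The windows below are shown in their own strand, 5′ to 3′, with matches in capitals. The first pair belongs to the members lowest and highest with shikonin among those with a window and an average of 5 FPKM or more. The other 4 are those with the most matches in each complex, ties going to the gene with the higher mean level.
Ndufb3 (chr1:58586147-58586446, plus strand): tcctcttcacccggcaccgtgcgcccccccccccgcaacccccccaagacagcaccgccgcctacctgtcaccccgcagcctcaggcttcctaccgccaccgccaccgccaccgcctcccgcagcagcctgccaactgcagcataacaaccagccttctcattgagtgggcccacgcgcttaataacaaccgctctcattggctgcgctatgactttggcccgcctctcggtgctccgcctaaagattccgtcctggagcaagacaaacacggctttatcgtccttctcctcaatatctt
Cox7a2l (chr17:83514284-83514583, minus strand): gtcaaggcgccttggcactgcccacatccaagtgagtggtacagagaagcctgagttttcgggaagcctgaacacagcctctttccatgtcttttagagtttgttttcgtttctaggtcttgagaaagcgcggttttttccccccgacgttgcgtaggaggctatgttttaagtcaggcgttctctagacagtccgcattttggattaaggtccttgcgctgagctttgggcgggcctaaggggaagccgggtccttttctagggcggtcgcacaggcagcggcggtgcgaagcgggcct
Ndufb4 (chr16:37654319-37654618, minus strand): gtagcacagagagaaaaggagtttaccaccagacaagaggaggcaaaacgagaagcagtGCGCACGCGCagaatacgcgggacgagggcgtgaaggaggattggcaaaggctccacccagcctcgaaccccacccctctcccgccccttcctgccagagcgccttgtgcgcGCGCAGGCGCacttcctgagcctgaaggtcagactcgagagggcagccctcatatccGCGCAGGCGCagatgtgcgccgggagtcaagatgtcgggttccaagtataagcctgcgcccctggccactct
Uqcrc1 (chr9:108936398-108936697, plus strand): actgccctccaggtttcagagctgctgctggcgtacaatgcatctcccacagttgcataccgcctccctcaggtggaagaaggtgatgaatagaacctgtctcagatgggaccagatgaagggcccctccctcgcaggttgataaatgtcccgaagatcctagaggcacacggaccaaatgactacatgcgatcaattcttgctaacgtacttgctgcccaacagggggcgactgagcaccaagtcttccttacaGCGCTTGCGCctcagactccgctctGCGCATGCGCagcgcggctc
Cox6a1 (chr5:115348909-115349208, minus strand): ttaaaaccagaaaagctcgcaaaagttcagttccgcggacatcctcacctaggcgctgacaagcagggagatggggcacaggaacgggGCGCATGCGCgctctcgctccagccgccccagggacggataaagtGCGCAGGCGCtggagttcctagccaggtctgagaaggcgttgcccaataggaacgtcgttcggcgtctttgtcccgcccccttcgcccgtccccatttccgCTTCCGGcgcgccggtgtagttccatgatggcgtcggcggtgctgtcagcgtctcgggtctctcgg
Atp5h (chr11:115419870-115420169, minus strand): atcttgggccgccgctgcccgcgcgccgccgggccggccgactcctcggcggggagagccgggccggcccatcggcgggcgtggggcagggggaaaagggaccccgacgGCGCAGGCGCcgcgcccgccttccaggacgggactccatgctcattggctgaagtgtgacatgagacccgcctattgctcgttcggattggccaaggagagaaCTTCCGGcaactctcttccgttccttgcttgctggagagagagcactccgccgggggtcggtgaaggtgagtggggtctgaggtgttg

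Neither Ndufb3 nor Cox7a2l held any of the 3 sets of letters in this window, which says nothing about the factors themselves. Ndufb4 held the NRF-1 letters at 3 places, Uqcrc1 at 2 places, Cox6a1 at 2 places beside 1 ETS match, and Atp5h at 1 place beside 1 ETS match. These genes did not share a direction with shikonin, as Ndufb4 was at -0.52, Uqcrc1 at -0.21, Cox6a1 at 0.06 and Atp5h at 0.26. Other complex V genes also held letters of more than 1 factor and were below vehicle. They were Atp5k (NRF-1 and ETS) at -0.33 and Atp5j (ETS and YY1) at -0.30, so the complex V example depends on which gene is shown. The 15 members with the NRF-1 letters had a median of -0.21 with shikonin and the 48 others that entered one of -0.16. For the YY1 letters the medians were -0.20 with a match and -0.16 without, and for the ETS letters -0.09 and -0.19. In shControl against vehicle the 14 members with the ETS letters had a median of 0.35 and the 49 others one of 0.27, those with and without the YY1 letters one of 0.35 and 0.27, and those with and without the NRF-1 letters one of 0.30 and 0.29.

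TEPP-46 was read against the vehicle library too, so this comparison and the shikonin one share their control and are not independent. Subunit genes of complex I lay around 0 and those of complex V slightly below it. Over all 75 members the median was -0.05 (all genes 0.00), and 49 lay below 0, against 50.2% of all genes. Higher by 25% or more were 2 members and lower by 20% or more were 2, where 10.6% and 8.91% of all genes were. Cox6a2, which entered through its level in this same library, was among those higher. Rescaled to TPM, 4 were lower and 2 higher, with no matching share of all genes counted. The medians were 0.00 for complex I with 18 of 36 genes below 0, -0.14 for complex III with 5 of 9, -0.05 for complex IV with 10 of 13 and -0.14 for complex V with 16 of 17. The complex V name above 0 was Atp5s, at 0.28 with a counting SE of 0.29. Among complex V genes Atp5k was at -0.31 (257 FPKM against 319 FPKM), Atp5g3 at -0.31 (497 FPKM against 616 FPKM), Atp5h at -0.25 and Atp5c1 at -0.24, with Atp5b close to 0 at -0.03.

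Among members averaging 5 FPKM or more, the highest and the lowest with TEPP-46 both belonged to complex III. Uqcrq, a small subunit near the cytochrome b core, stood at 368 FPKM with TEPP-46, 288 FPKM with vehicle, 210.2 FPKM with shikonin, 260.2 FPKM in shPKM2 and 302 FPKM in shControl, a difference from vehicle of 0.36 (counting SE 0.031). Uqcrh, the hinge protein that docks cytochrome c1, stood at 206 FPKM with TEPP-46, 298 FPKM with vehicle, 292 FPKM with shikonin, 318 FPKM in shPKM2 and 338 FPKM in shControl, a difference of -0.53 (counting SE 0.037). For both genes the TEPP-46 value lay outside the range of the other 4 libraries, in opposite directions. In complex I the lowest was Ndufs1, at -0.28 (46.4 FPKM against 56.6 FPKM, counting SE 0.069), followed by Ndufb2 (-0.23) and Ndufb8 (-0.20), and the highest were Ndufa2 (0.20), Ndufs5 (0.18) and Ndufv3 (0.14). The 7 core subunits had a median of 0.04, and Cyc1 was at 0.01.

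The compounds were also set directly against each other, both libraries having been taken at 8 h, though the doses are not given. With shikonin the members were lower than with TEPP-46 by median (-0.11, all genes -0.04), 15 of 75 being lower by 20% or more and 5 higher by 25% or more, where 28% and 22.5% of all genes were. Complex I had a median of -0.14, complex III of -0.16, complex V of -0.10 and complex IV of 0.04. The last became -0.01 when rescaled to TPM, where all genes had a median of -0.085. Core complex I genes were all lower with shikonin (median -0.40), led by Ndufs7 and Ndufv1 at -0.62 each. Uqcrq at -0.81 and Uqcrh at 0.50 marked the ends of complex III, with Cyc1 at -0.64. On the high side were Atp5h (0.51), Cox7a2l (0.50), Cox4i1 (0.28) and Ndufa4 (0.28), genes that were also above vehicle with shikonin.

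Lowering Pkm by hairpin for 72 h was examined in shPKM2 against shControl. Subunit genes were slightly lower in shPKM2, with 61 of 75 below 0, against 49.7% of all genes, and a median of -0.12 (all genes 0.00). The size was small: 3 members were lower by 20% or more, where 4.26% of all genes were, and 1 was higher by 25% or more, where 4.65% were. Rescaled to TPM the numbers were 2 lower and 2 higher, and shares of all genes were not counted on that scale. The member median was then -0.06, but that of all genes also moved, to 0.06. Relative to the median of all genes, without that rescaling, the member median was -0.12. The medians were -0.13 for complex I, -0.09 for complex III, -0.19 for complex IV and -0.07 for complex V. All coding genes with transcripts under 1000 nt had a median of -0.04 in this comparison, and the part of transcript length was not tested. With the vehicle library as the control of shPKM2 the direction turned: the median of all members was 0.16, and those of complexes I, III, IV and V were 0.15, 0.03, 0.16 and 0.22. The sign of the median thus depended on the control library. Members were higher in shControl than in vehicle (median 0.30), so this exchange had to raise the values. The vehicle library also differs in hairpin and time of treatment. Which library the lower values in shPKM2 come from was not tested.

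Among single genes in the knockdown, the lowest were small accessory subunits. Ndufa3 stood at 99.3 FPKM in shPKM2, 134 FPKM in shControl, 109 FPKM with vehicle, 108 FPKM with TEPP-46 and 74.6 FPKM with shikonin, a difference of -0.43 between the hairpins (counting SE 0.059), the shPKM2 level lying nearer to vehicle than to shControl. Atp5k, the e subunit of the membrane part of ATP synthase, was at -0.40 (counting SE 0.040), from 297 FPKM and 393 FPKM. Ndufv3 stood at 80.1 FPKM against 102 FPKM (-0.34, counting SE 0.054). They were followed by Atp5l (-0.32), Ndufa2 (-0.30), Atp5e (-0.29) and Cox6a1 (-0.29). Core complex I subunits were closer to 0, with a median of -0.08. In complex III, Uqcrfs1 was at -0.24 and Uqcr11 at -0.23. On the high side were Ndufa9, at 84.7 FPKM against 68.7 FPKM (0.30, counting SE 0.041), Uqcr10 at 0.20 and Uqcrc1 at 0.16. Atp5b (0.06), Cyc1 (0.04) and Cox5a (0.00) showed next to no difference.

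The control libraries also differed from each other in these genes. The comparison shares shControl with the knockdown one and vehicle with those of the compounds. In shControl against vehicle 71 of 75 members were higher, against 46.9% of all genes, with a median of 0.30 (all genes -0.02). Higher by 25% or more were 31 of 75, where 17.2% of all genes were, and none was lower by 20% or more, where 14.5% were. No member was 2-fold higher or lower here, where 3.48% of all genes were higher and 0.665% lower. The count of 31 was 12 when rescaled to TPM, and the matching share of all genes was not counted. The member median was then 0.23 and that of all genes -0.09. Complexes I, IV and V had nearly the same median, 0.30, 0.30 and 0.31, and complex III had 0.18. All 17 complex V genes were higher, from 0.15 for Atp5b to 0.56 for Atp5h. The largest differences in complex I were those of Ndufv3 at 0.75 (102 FPKM against 60.3 FPKM, counting SE 0.056), Ndufa2 at 0.60 and Ndufb7 at 0.54, and in complex IV that of Cox5b at 0.51 (469.7 FPKM against 330.3 FPKM). Exceptions were Uqcr10 (-0.21), Ndufa9 (-0.14), Cox6a2 (-0.07) and Ndufb3 (-0.03). All coding genes under 1000 nt had a median of 0.07. These libraries differ in hairpin, in time of treatment and in any batch that goes with them, which cannot be told apart.

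Genes for alternative forms of a subunit showed which versions the myoblasts used. The widely expressed form was used throughout, as Cox4i1 stood at 488 to 638 FPKM and the lung form Cox4i2 at 0 to 0.151 FPKM, and Ndufa4 at 514 to 653 FPKM while its hypoxia-responsive relative Ndufa4l2 stood at 0.0892 to 0.384 FPKM. Cox6b1 stood at 323 to 473 FPKM, and the testis form Cox6b2 was listed at 0 in all libraries but shikonin (0.153 FPKM). Cox8a stood at 257 to 345 FPKM, the muscle form Cox8b at 0 to 0.494 FPKM, and Cox8c was listed at 0 in all 5. Cox7b2 did not exceed 0.227 FPKM. All of these low values rest on fewer than 9 estimated reads each and give no order of libraries. The 3 genes for the c subunit of ATP synthase, which encode the same mature protein with different import sequences, kept their order in every library, Atp5g3 at 464 to 777 FPKM above Atp5g2 at 363 to 556 FPKM and Atp5g1 at 203 to 294 FPKM.

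**Figure D5:**
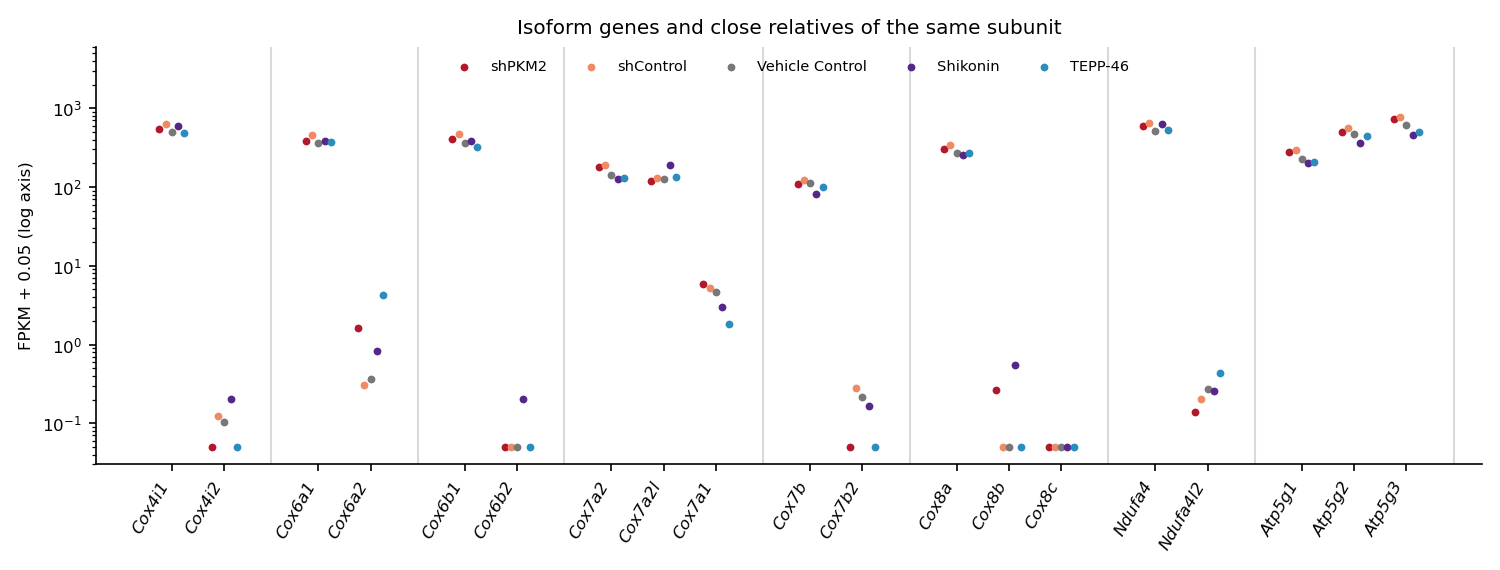
FPKM + 0.05 (log axis) of genes for alternative forms or close relatives of the same subunit, each point 1 library, with points on the lowest line listed at 0. The common forms Cox4i1, Cox6a1, Cox6b1, Cox8a and Ndufa4 lie at 257 FPKM or more in every library, and Cox6a2 is highest with TEPP-46 at 4.25 FPKM.

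The muscle forms Cox6a2 and Cox7a1 were the only members of that kind with a measurable level. Cox6a2, the heart and skeletal muscle form of Cox6a1 (chromosome 7, 128205435 to 128206366), stood at 4.25 FPKM with TEPP-46, 0.314 FPKM with vehicle, 0.780 FPKM with shikonin, 1.56 FPKM in shPKM2 and 0.254 FPKM in shControl. On the log2(FPKM + 1) scale it was the only member at least 2-fold different in any comparison, by 2.00 with TEPP-46 against vehicle, 1.03 in shPKM2 against shControl and -1.56 with shikonin against TEPP-46. Cox6a2 passed the minimum of 1 FPKM only through its TEPP-46 level. Its differences involving that library, and its place in the counts, therefore follow partly from the filter. In the table as a whole 1.23% of genes were at least 2-fold higher with TEPP-46, 0.395% in shPKM2 and 3.64% lower with shikonin than with TEPP-46. In the other direction the shares were 0.359% with TEPP-46, 0.225% in shPKM2 and 3.64% with shikonin against TEPP-46. The estimated reads behind these values were 69.3, 6.5, 11.8, 27.4 and 3.9 in the order given, so the smaller differences are poorly measured. Cox7a1, the muscle form of Cox7a2, stood at 1.80 FPKM with TEPP-46, 4.57 FPKM with vehicle, 2.91 FPKM with shikonin, 5.84 FPKM in shPKM2 and 5.22 FPKM in shControl (-0.99 with TEPP-46, counting SE 0.38), and only the added 1 kept it short of 2-fold, the plain ratio to vehicle being 0.394. These muscle forms thus lay on opposite sides of vehicle in the TEPP-46 library.

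Other genes of the chain were read from lists. The 4 genes of complex II, succinate dehydrogenase, were lower with shikonin, at -0.51 for Sdha, -0.39 for Sdhb, -0.41 for Sdhc and -0.37 for Sdhd, all 4 by 20% or more, where 27.5% of all genes were. Sdhd was also lower with TEPP-46 (-0.35), where 8.91% of all genes were lower by 20% or more. In shControl against vehicle all 4 were higher (median 0.36). Cycs, the gene of cytochrome c, was at -0.32 with shikonin and 0.21 in shControl against vehicle. The mitochondrially encoded subunits were not analysed here. Of 14 measured complex I assembly genes 9 were below 0 with shikonin and the median was -0.13. The lowest of them were Nubpl, which delivers iron-sulfur clusters to complex I, at 3.83 FPKM against 10.99 FPKM (-1.31, counting SE 0.10), and Timmdc1 (-0.62). Of 21 complex IV assembly genes 10 were below 0 (median 0.05), and their ends were wide, with Cmc2 at -0.88, Coa3 at -0.82, the copper chaperone gene Cox17 at -0.58 and the copper delivery gene Sco1 at 0.51. All 4 measured complex V assembly genes were below 0 with shikonin (median -0.32), with Tmem242 at -0.59. With TEPP-46 the medians of the complex I and complex IV assembly lists were both 0.01, and no gene of either was higher by 25% or lower by 20%. In shPKM2 against shControl these medians were 0.05 and -0.04. At the low end were Cox14 at -0.56, Coa4 at -0.56 (counting SE 0.20), Cox15 at -0.53 and Cox17 at -0.46, and at the high end Pet117 (0.47) and Coa5 (0.44). Of the 21 complex IV assembly genes 4 were thus lower by 20% or more and 2 higher by 25% or more. Of all genes 4.26% and 4.65% were. Of the complex III assembly list 3 genes were in the table under the names searched and 2 passed the minimum, Bcs1l (-0.17 with shikonin) and Ttc19 (0.15).

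Regulators of mitochondrial genes lay on both sides of 0, with medians of -0.10 with shikonin, 0.03 with TEPP-46, -0.02 in shPKM2 against shControl and -0.02 in shControl against vehicle over 14 genes. Ppargc1a, which encodes the coactivator PGC-1 alpha, stood at 3.42 FPKM in shPKM2 and 3.29 FPKM in shControl but at 0.105 FPKM with vehicle, 0.134 FPKM with TEPP-46 and 0.233 FPKM with shikonin. It passed the minimum through the hairpin libraries, the only ones with more than 1 FPKM of it (1.96 for shControl against vehicle). Estimated reads were 8.9 with vehicle, 8.9 with TEPP-46 and 14.2 with shikonin. The hairpin libraries also had the higher subunit levels, but hairpin, time of treatment and any batch cannot be told apart. Esrra, the gene of the PGC-1 alpha partner ERR alpha, was at 0.41 in shControl against vehicle. In that comparison Pprc1 was at -0.46, Tfb2m at -0.47, Gabpa at -0.24 and Nrf1 at -0.09. With shikonin, Lrpprc, which stabilises mitochondrial mRNA, was at 0.49, the mitochondrial transcription factor gene Tfb2m at 0.45 and Gabpb1 at 0.36, while Ppargc1b was at -0.43, Tfb1m at -0.41, Pprc1 at -0.31, Nrf1 at -0.19 and Tfam at -0.12. With TEPP-46 no regulator was higher by 25% or lower by 20%, Nrf1 and Lrpprc being at 0.21 each. Whether these regulators took part in the levels of the subunit genes was not tested.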

How the data were processed

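Polyadenylated RNA of 5 cultures was sequenced on a NextSeq500 after NEBNext library preparation, per the labels' protocols, with 1 library per condition. The authors deposited 1 table of FPKM values with a column per library, matched to the conditions by column name. Per the submitters' processing notes, Trim Galore 0.6.0, cutadapt, FastQC and DESeq2 1.26.0 were used with GRCm38. Aligner, annotation and strandedness: not given in the sources used here. Many subunit genes have processed pseudogenes, and how reads shared with them were counted is not known, so levels may include such reads or lack them. Short transcripts also depend on how fragment length was treated.

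FPKM values are not counts, so no count model was used, and with 1 library per condition no test. Differences were taken on log2(FPKM + 1) for the 11128 genes averaging 1 FPKM or more, in Python 3.11.15 with pandas 2.3.3, tested on simulated data. Folds of 1.25 and 2 served as limits. Depth came from values that were whole multiples of 1 step within 0.02 in 2257 of 3214 low genes, using 539 genes with a single GENCODE M21 transcript. Vehicle depth had quartiles of 27.1 and 32.4 times 1000000 reads. The counting SE applies to a log2 ratio with nothing added, uses the median coding transcript length and covers counting error only. Members and lists were chosen with earlier results of these data known. Members named were drawn, per complex and comparison, from those at the 3 highest and 3 lowest places with a mean of at least 5 FPKM. Not all of these are named, and with TEPP-46 against vehicle none of complex IV is. Also named were isoform groups, the core subunits of complex I and any member at least 2-fold different. Others are named where their role is described. They were chosen after values were seen, as were the limit of 1000 nt and the promoter windows shown. One member is counted in the lists but not reported here by name. Alternatives were other pseudocounts, filters, TPM, centring on all genes and the other control library.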

Additional observations from a re-analysis of the deposited data

How the results depend on the processing

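Of 266 recomputed medians and counts, 232 stayed within the interval of the median or within 1.5 times, 30 moved by more, and 4 reversed. The cause was not tested. That interval is taken over member genes as if independent, and is wide for small complexes. Complex IV with shikonin thus counted as staying though it went from 0.01 to -0.33 with shControl as control. So did complex III in shPKM2, which went from -0.09 to 0.03 with vehicle as control. The control library mattered most. When vehicle served as control for shPKM2, the medians of all members (0.16), complex I (0.15), complex IV (0.16) and complex V (0.22) reversed, and the members higher by 25% and lower by 20% numbered 9 and 0. With shControl as the control of shikonin the medians were -0.49 for all members, -0.47 for complex I, -0.50 for complex III and -0.53 for complex V, with 55 members lower. With shControl as the control of TEPP-46 they were -0.34 for all members, -0.31 for complex I, -0.34 for complex III, -0.37 for complex IV and -0.46 for complex V, with 1 member higher and 42 lower. Shares of all genes past these limits were not counted with the other control library, with TPM or under the other settings here. How far the counts under them are particular to the members is therefore not known. Rescaling to TPM gave, in shPKM2 against shControl, -0.057 for all members, -0.069 for complex I, -0.0054 for complex V and 2 members higher, -0.16 for complex III and 4 members lower with TEPP-46, and 0.23 for all members and 12 members higher in shControl against vehicle. It moved the median of all genes as well, by 0.07 or less in size and in the same direction as that of all members. With a minimum mean of 5 FPKM, which leaves out Cox6a2, Cox7a1, Atp5s and Atp5sl, the members higher were 0 in shPKM2, 1 with shikonin, 1 with TEPP-46 and 3 with shikonin against TEPP-46, and 1 was lower with TEPP-46. A pseudocount of 5 gave 0 higher in shPKM2. Counting Ndufa4 in complex IV and leaving out Atp5s, Atp5sl and Cox7a2l, chosen after seeing the data, gave 1 higher with shikonin and 3 with shikonin against TEPP-46. No paired analysis was possible because each condition has 1 library and no replicate number, and no library could be left out of a comparison.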

Other observations

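Several proteins of these complexes or of their surroundings have genes that the name patterns miss, and they were looked at after the values of the members were seen. Ndufab1, the acyl carrier protein of complex I, stood at 59.5 FPKM with shikonin, 82.8 FPKM with vehicle, 82.2 FPKM with TEPP-46, 92.8 FPKM in shPKM2 and 104 FPKM in shControl, a difference of -0.47 with shikonin. Usmg5, the older name of a small ATP synthase subunit, was among the more abundant of these transcripts at 484 to 665 FPKM and differed by -0.34 in shPKM2 against shControl. Atpif1, the gene of the inhibitor of ATP synthase, stood at 211 FPKM in shPKM2, 269 FPKM in shControl, 239.6 FPKM with vehicle, 229 FPKM with TEPP-46 and 189 FPKM with shikonin.

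The adenine nucleotide carriers, which exchange the ATP made by complex V for ADP, were lower with shikonin by more than most ATP synthase subunits. Slc25a4 stood at 278 FPKM with shikonin against 517 FPKM with vehicle (-0.90, counting SE 0.016) and Slc25a5 at 448 FPKM against 668 FPKM (-0.57, counting SE 0.016). The twin CX9C protein genes Chchd2 and Chchd10, related to each other, were higher with shikonin. Chchd2 stood at 389 FPKM with shikonin, 170.2 FPKM with vehicle, 162 FPKM with TEPP-46, 179.7 FPKM in shPKM2 and 212 FPKM in shControl (1.19 with shikonin against vehicle, counting SE 0.026). Chchd10 stood at 3.07 FPKM with vehicle, below all other libraries, at 8.09 FPKM with TEPP-46, 8.85 FPKM with shikonin, 14.4 FPKM in shPKM2 and 15.4 FPKM in shControl.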
